A study of Mus musculus with 17 samples.

Results

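The control macrophages of a mouse study of Smad3 were described together as a baseline transcriptome: 10 control libraries out of 17 in the series. Of these, 5 were labelled Smad3 wild type and 5 Smad3 knockout, all on the C57BL/6J (H-2b) background, and a library was chosen only by its control label. All came from bone marrow cells cultured over 7 days in 50 ng/ml of M-CSF, the growth factor of macrophages. The remaining 7 libraries came from cultures given transforming growth factor beta 1 and were not compared here. RNA was copied and amplified by SMART-seq2, which reads full-length transcripts from small inputs. The submitters call the assay single-cell RNA sequencing in the title and the design, yet their protocol uses a column kit to extract RNA from suspended cells. It is therefore unclear if each library holds the RNA of 1 cell or of a pool, which bears on how zeros and the spread between libraries can be read. The labels do not name the Smad3 allele, the animals or the cultures, and they do not say whether control cells stayed in culture for the further 5 days of the treatment. The design text mentions flow sorting on F4/80 and smooth muscle actin without giving the gate of any library. All p-values therefore measure the spread between libraries only, and those of limma take that spread from all 17 libraries of the series. Fewer cells of a type cannot be told apart from less RNA per cell.

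Macrophages grown from bone marrow depend on M-CSF, which signals through the receptor encoded by Csf1r. They engulf particles and cells, break them down in acidic lysosomes filled with cathepsins, and recycle the iron they take up, which is held in ferritin, a shell built of heavy (Fth1) and light (Ftl1) chains. Lyz2 encodes the lysozyme of myeloid cells, and a motile cell of this kind also keeps a large actin skeleton.

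The labels were checked first. Smad3, which carries the transforming growth factor beta signal to the nucleus, was barely present in either group. Its level in wild-type libraries 1 to 5 was 0, 0.01, 0, 15.4 and 11.5 TPM (an abundance per transcript length, scaled to the same total in every library), and in knockout libraries 1 to 5 it was 0, 0.27, 1.93, 0 and 0. It reached TPM 1 in 2 wild-type libraries and in 1 library labelled knockout, and the groups overlapped (difference of mean log2(TPM + 1) -1.16, two-sided exact permutation p = 0.365), so its level did not separate the labels. Xist was at most 0.01 TPM and 4 Y-linked genes summed to 50.0 to 196 TPM in every library.

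The macrophage label held. None of 23 macrophage markers was at 0 in all 10 libraries, and 19 reached TPM 1 in every library. Together they took 108047 to 177926 TPM per library. Ftl1 and Fth1 are among them and alone took 6.22% to 9.08% of the TPM, so the size of the sum does not test identity. Csf1r stood at 498, 270.3, 628, 177 and 262 TPM in wild-type libraries 1 to 5 and at 536, 273, 363, 299 and 232 TPM in knockout libraries 1 to 5. These overlapping ranges put the M-CSF receptor at rank 495 of all genes by median TPM. Spi1, the transcription factor that directs macrophage fate, was steadier (median 545 TPM, 418 to 809). Adgre1, which encodes F4/80, ranged from 25.4 to 328 TPM. Mertk, a receptor for dying cells, and Mrc1, the mannose receptor, were low, with medians of 0.1 and 2.62 TPM.

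Markers of other blood and tissue cells were mostly absent. All 9 erythroid markers were at 0 in every library, as were 10 of 13 neutrophil, 10 of 15 lymphocyte, 9 of 11 mast cell, 5 of 10 dendritic cell, 6 of 13 fibroblast, 7 of 9 platelet and 6 of 9 endothelial markers. The summed levels stayed at or under 11.01 TPM for mast cell, 8.47 TPM for fibroblast, 7.09 TPM for dendritic cell, 4.12 TPM for platelet and 2.09 TPM for lymphocyte markers. The exceptions were the neutrophil list (0.91 to 174 TPM), the endothelial list (20.1 to 58.9 TPM) and the osteoclast list (50.1 to 468 TPM, 3 of 11 at 0). The osteoclast sum was 50.1 to 155 TPM in wild-type and 126 to 468 TPM in knockout libraries. Those ranges overlap, and the sum was not tested between the groups. S100a8, a neutrophil protein, reached 132 TPM in wild-type library 4, and Mmp8, a neutrophil collagenase, 136 TPM in knockout library 5, while the defining neutrophil genes Elane, Mpo, Ly6g and S100a9 were at 0 throughout. Vwf and Kdr, known from endothelium, had medians of 22.9 and 13.3 TPM, while Pecam1, Cdh5 and Cldn5 were at 0. Their part in the results was not tested.

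The libraries held 7269 to 9989 genes at TPM 1 or above (median 8672). Of 37620 gene identifiers, 3796 reached that level in all 10 libraries and 19085 were listed at 0 in every one. The median level was at least 100 TPM for 1491 genes and at least 1000 TPM for 106. Of moderate genes, those averaging 10 to 50 TPM over the rest of a library's group, 4.08% to 13.9% were listed at 0 in that library, and 4 libraries (wild-type libraries 3, 4 and 5 and knockout library 2) lay above 10%. Across the 1491 abundant genes, the correlation of log2(TPM + 1) between libraries had a median of 0.729 within a labelled genotype and 0.711 between genotypes. Pairs of wild-type libraries ran from 0.610 to 0.744 and pairs of knockout libraries from 0.708 to 0.838, which overlap. Pairs within a group reuse the same 5 libraries, and a difference between the groups was not tested. Pairs across genotypes ran from 0.637 to 0.802. Those correlations run across genes, which share a library and are not independent replicates.

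A small number of genes held much of the RNA signal. The 50 genes of highest median TPM took 31.8% ± 3.01 of the TPM (SD, n = 10), the top 100 took 39.1% ± 3.10 and the top 500 took 59.8% ± 2.51. In a single library, 156 to 330 genes were enough to account for 50% of the TPM. Ftl1 was the most abundant gene in 7 libraries, Fth1 in 2 and Lyz2 in 1. Between 24 and 29 of the overall top 30 genes were also in the top 30 of a given library, and 49 genes were in the top 100 of all 10.

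**Figure D1:**
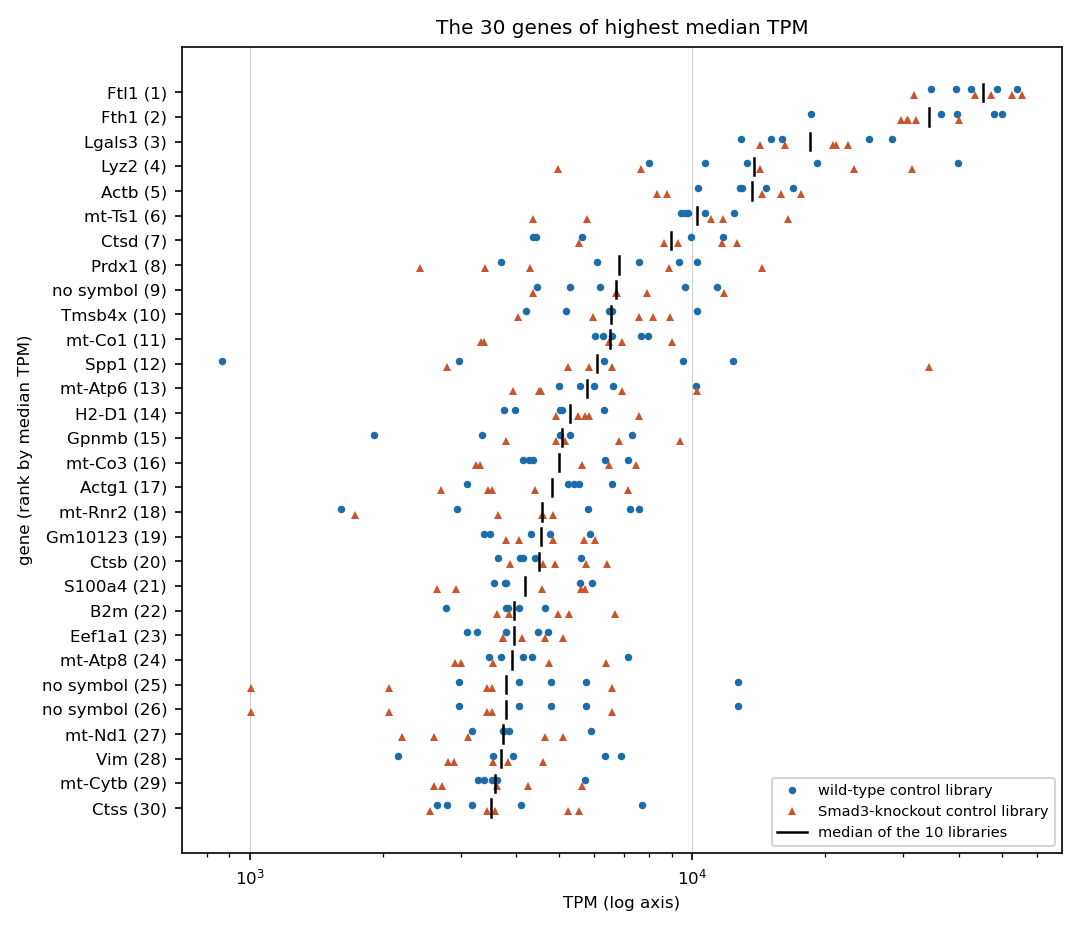
TPM of the 30 genes of highest median (log axis), with 1 circle for each wild-type control library, 1 triangle for each knockout control library and a bar at the median of the 10. Ftl1 and Fth1 lie to the right of the other genes in most libraries, Spp1 spreads from 865 to 34315 TPM, and Eef1a1 stays between 3098 and 5093 TPM.

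Ferritin led the list. The light chain Ftl1 was at 34646, 48872, 42711, 54145 and 39402 TPM in wild-type libraries 1 to 5 and at 31669, 52772, 47337, 43561 and 55599 TPM in knockout libraries 1 to 5. The heavy chain Fth1 was at 50091, 39729.8, 48045, 18568 and 36466 TPM in the wild-type libraries and at 30526, 32103, 29669.7, 40096 and 30795 TPM in the knockout libraries. The groups overlapped for both, and the light chain exceeded the heavy chain in 8 of 10 libraries, with a ratio from 0.692 to 2.92. Summed, the ferritin chains took 8.07% ± 0.870 of the TPM (6.22% to 9.08%), a 1.46-fold range beside 1.76-fold for Ftl1 and 2.70-fold for Fth1.

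Ferritin messages carry an iron responsive element, a hairpin near the 5′ end through which iron regulatory proteins are known to hold back translation when iron is scarce. Both leaders hold it, shown here because these messages led the ranking, with the 6 loop bases in capitals (5′ to 3′, GENCODE vM21 transcripts).
Ftl1: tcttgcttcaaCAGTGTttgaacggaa
Fth1: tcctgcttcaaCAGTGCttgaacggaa
The search asked for a C, 5 bases, the letters CAGTG, a base other than G, and 5 bases that can pair with the first 5, on the transcript strand. It matched the annotated 5′ leaders of 21 of 21071 genes (0.0997%). Among the others were Slc40a1, the iron exporter, and Alas2, which starts haem synthesis in red cells. Their median level here was 0 TPM, but Slc40a1 reached 33.6 TPM while Alas2 was at 0 in every library. A match is a description of letters and says nothing about protein binding in these cells.

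After ferritin came galectin 3, lysozyme and actin. Lgals3, a secreted sugar-binding protein of macrophages, was at 12917 to 28224 TPM (median 18497). Lyz2 was at 19175, 7979.8, 13310.5, 10711 and 39900.4 TPM in wild-type libraries 1 to 5 and at 4975, 7676, 23244, 14223 and 31443 TPM in knockout libraries 1 to 5. Lyz2 thus spanned 8.02-fold, the second-widest range among the named genes of the top 30 after Spp1, with high and low libraries in each group. Its close copy Lyz1, known from the gut, stayed at or below 1.92 TPM in every library. Actb had a median of 13669 TPM (8312 to 17604), and its ratio to the other cytoplasmic actin, Actg1, ran from 1.90 to 5.45.

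The lysosome supplied Ctsd (median 8950.3 TPM), Ctsb (4499 TPM) and Ctss (3515 TPM), the main aspartic and cysteine cathepsins, and Gpnmb (5079 TPM), a lysosomal membrane glycoprotein. Ctsb was the steadiest of these, at 3647 to 6431 TPM, and Ctsd ranged from 4365 to 12633 TPM. Spp1, which encodes the secreted phosphoprotein osteopontin, was at 9514, 12336, 865, 6314 and 2966 TPM in wild-type libraries 1 to 5 and at 2787, 5842, 6594, 5236 and 34315 TPM in knockout libraries 1 to 5. Knockout library 5 stood far above the rest and wild-type library 3 below them. Of the top 30, 8 were mitochondrial transcripts, 24 were protein-coding, 1 was a pseudogene and 3 had no symbol. Of these 3, 2 had identical values in every library.

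The remaining leaders were genes of antigen presentation, of the cytoskeleton and of protein synthesis. H2-D1 (median 5293 TPM) and B2m (3962 TPM) encode the heavy and light chains of MHC class I, which displays peptides on all cells. S100a4 (4183 TPM) encodes a calcium-binding protein of motile cells, and Vim (3697 TPM) the intermediate filament vimentin. Prdx1, a peroxide-removing enzyme, had a median of 6823 TPM and ran from 2421 TPM in knockout library 3 to 14373 TPM in knockout library 4. Gapdh, often taken as a reference gene, was at 326 TPM (219 to 531), below the glycolytic genes Pkm (2565 TPM), Aldoa (2310.4 TPM) and Ldha (1637 TPM). Gapdh has many pseudogenes, among which the authors' estimate could divide its reads, but this was not tested.

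Next, genes were grouped into 31 classes by function, each gene in 1 class. The classes covered 1341 genes and 51.6% ± 1.77 of the TPM (SD, n = 10), and 17 of them held more than 1% each. Protein-coding genes as a whole took 89.0% ± 1.29, processed pseudogenes 3.50% ± 0.442, and identifiers with no symbol 3.83% ± 0.969.

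The largest share belonged to ferritin and iron handling, at 8.31% ± 0.875, of which Ftl1 alone made up 54.3%. Behind Ftl1 and Fth1 in this class came Hmox1, which degrades haem (median 921 TPM), and Slc11a1, which pumps metal ions out of the phagosome (355 TPM). The actin cytoskeleton followed at 5.07% ± 0.752, led by Actb, Tmsb4x (6541 TPM), which sequesters actin monomers, and Actg1 (4829 TPM), followed by Pfn1 (2648 TPM), which feeds monomers to growing filaments. The 13 mitochondrially encoded protein genes held 3.65% ± 0.929, led by mt-Co1 (6533 TPM), a subunit of cytochrome oxidase. The 84 cytosolic ribosomal protein genes held 3.56% ± 0.588, and annexins, S100 proteins and galectins 3.49% ± 0.558.

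Lysosomal genes were split among 3 classes. Cathepsins, legumain and cystatins held 2.87% ± 0.561, lysosomal hydrolases and membrane proteins 2.56% ± 0.450, and the proton pump V-ATPase 0.723% ± 0.109. Of the 51 genes of the hydrolase and membrane class in the table, 48 had a median of at least TPM 1, led by Gpnmb, Cd68 (2952 TPM) and Grn (2648 TPM), the precursor of granulins.

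Many lysosomal genes are known to share a promoter element, the CLEAR site, bound by TFEB and its relatives, which coordinate lysosome production. The letters TCACGTG were searched on both strands in RefSeq windows (GRCm38.p6) from 250 bases before to 50 after each annotated start. They occurred in 18.9% of 95 windows of the 3 lysosomal classes and in 4.66% of the 19148 windows of all protein-coding genes. Windows existed for 40 of the 53 lysosomal genes with a median of at least 100 TPM, and 12 of these genes held a match. Stretches from the 4 matching genes of highest median whose match lay before the start are shown 5′ to 3′ on the gene's strand, with the matches in capitals, overlapping ones merged.
Ctsd (chr7:142387893-142387952, minus strand): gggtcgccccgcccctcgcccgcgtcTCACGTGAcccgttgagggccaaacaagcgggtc
Lamp1 (chr8:13159101-13159160, plus strand): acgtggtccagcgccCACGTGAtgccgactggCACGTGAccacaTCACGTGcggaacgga
Ctsa (chr2:164833713-164833772, plus strand): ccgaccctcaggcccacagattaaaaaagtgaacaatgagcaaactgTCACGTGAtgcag
Atp6v0b (chr4:117887330-117887389, minus strand): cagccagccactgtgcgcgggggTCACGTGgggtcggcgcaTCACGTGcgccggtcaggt
Ctsd is described above. Lamp1 (median 1444 TPM) encodes the main protein of the lysosomal membrane, Ctsa (1145 TPM) a protective protease of the lysosome, and Atp6v0b (998 TPM) a V-ATPase subunit. The matches are letters only, and no binding was measured.

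Smaller shares went to housekeeping and immune classes. Nuclear-encoded respiratory chain genes held 2.26% ± 0.309, proteasome and ubiquitin genes 2.01% ± 0.520, antioxidant enzymes 1.70% ± 0.420, translation factors 1.49% ± 0.186, chaperones 1.48% ± 0.266, MHC class I genes 1.24% ± 0.165 and glycolysis genes 1.15% ± 0.273. Fc receptors and their adaptors, which bind antibody-coated targets, held 0.860% ± 0.155, led by the signalling chains Fcer1g (2389 TPM) and Tyrobp (2320 TPM). Macrophage identity genes held 0.847% ± 0.113, the class of Csf1r, Adgre1 and Cd14. Complement genes held 0.173% ± 0.0501 and interferon-stimulated genes 0.170% ± 0.0361.

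**Figure D2:**
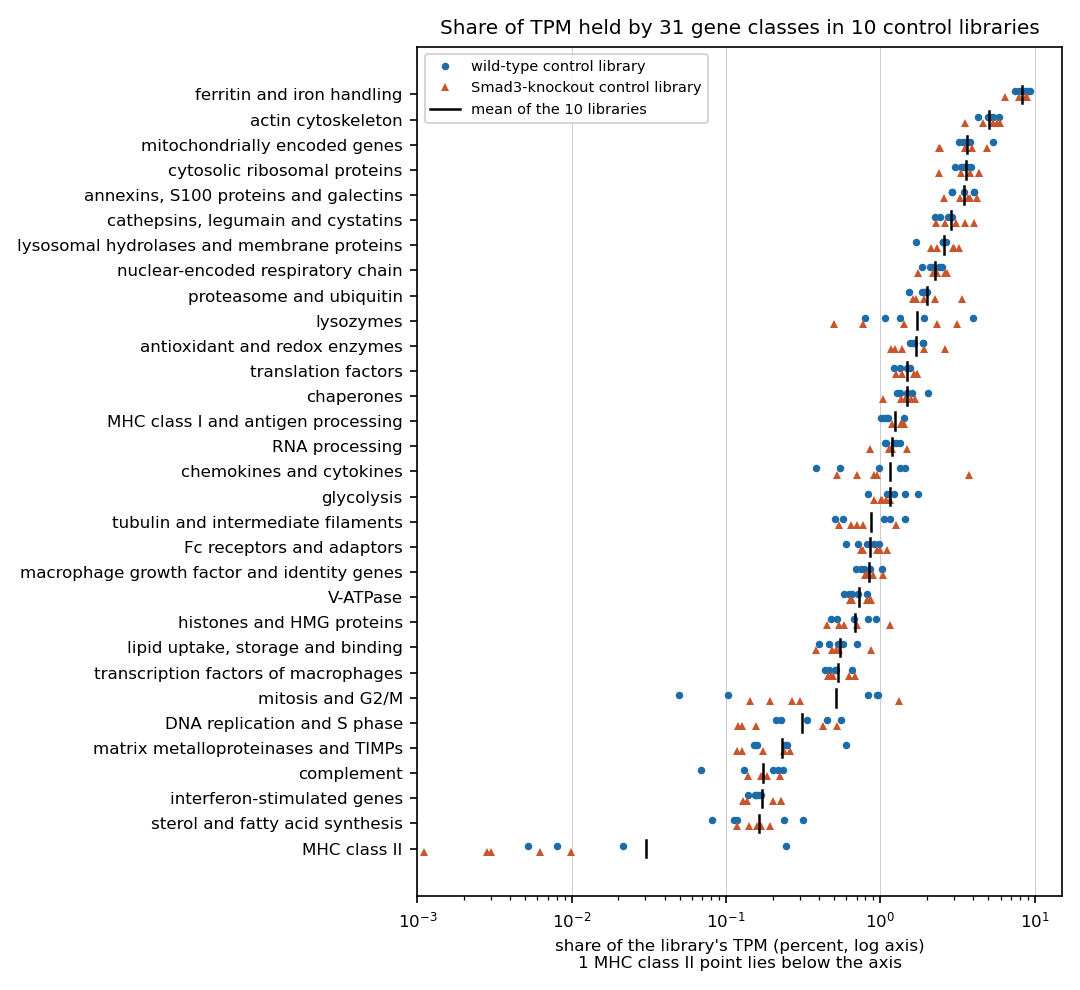
Share of TPM (percent, log axis) held by each of 31 classes, with 1 circle for each wild-type control library, 1 triangle for each knockout control library and a bar at the mean of the 10. Ferritin and actin points lie close together, while mitosis runs from 0.0499% to 1.32%. MHC class II reaches 0.245% in 1 wild-type library, and its lowest point (1.6e-05%) lies below the axis.

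Some classes differed widely between libraries. Lysozymes went from 0.497% to 3.99% of the TPM. Chemokines and cytokines, 75.2% of them Spp1, were at 0.383% to 1.45% in 9 libraries and at 3.76% in knockout library 5. Sqstm1, which encodes the autophagy receptor p62, was at 512 to 1678 TPM in 9 libraries and at 8662 TPM in knockout library 4. That library also held the highest share of proteasome and ubiquitin genes (3.38%), the class of Sqstm1, and of antioxidant enzymes (2.62%), the class of Prdx1. Prdx1 was highest there, at 14373 TPM, and is a large part of that share. Neither share shows by itself that the other members of its class were high, which was not tested. Gclm, a subunit of the enzyme that starts glutathione synthesis, was also highest there (1352 TPM, chosen after its value was seen). MHC class I was the class with the smallest p between labelled genotypes, at 1.14% ± 0.163 in wild-type and 1.34% ± 0.0951 in knockout libraries (two-sided exact permutation p = 0.0397, n = 5 each). With Benjamini-Hochberg adjustment over 31 classes its p was 0.951, and no class passed 0.05.

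MHC class II, which presents peptides to helper T cells, was far higher in 1 library: the class summed to 0.245% of the TPM in wild-type library 3 and to at most 0.0214% in any other, and its mean share fell from 0.0303% to 0.00643% without that library. Cd74, the invariant chain that guides class II molecules, was at 1181 TPM in wild-type library 3 and at 0, 0, 0 and 0 TPM in wild-type libraries 1, 2, 4 and 5. In knockout libraries 1 to 5 it was at 0, 2.76, 15.4, 0.12 and 0.02 TPM. The class II chains H2-Aa and H2-Ab1, chosen after their values were seen, were at 544 and 382 TPM in wild-type library 3 and at most 7.63 and 0.45 TPM elsewhere. Ciita, the factor that switches class II genes on and likewise chosen afterwards, was at 20.9 TPM there and at most 0.03 TPM elsewhere. The 10 dendritic cell markers summed to at most 0.51 TPM in any wild-type library. Class II genes were not confined to that library: H2-DMb1, part of a peptide-loading complex, was above TPM 1 in 9 of 10 libraries and reached 116 TPM in wild-type library 4.

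The spread between libraries was then measured for the 1491 genes with a median of at least 100 TPM, as the SD of log2(TPM + 1) over the 10 libraries. The median SD was 0.58 (quartiles 0.44 and 0.78), and 534 of these genes stayed within a 3-fold range. Spread fell with level: the median SD was 1.65 for genes of 10 to 100 TPM, 0.59 for 100 to 1000 TPM and 0.42 above that. The minimum of 100 TPM falls inside this gradient, with members at 100.02 TPM just inside it and 99.9 TPM just outside.

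**Figure D3:**
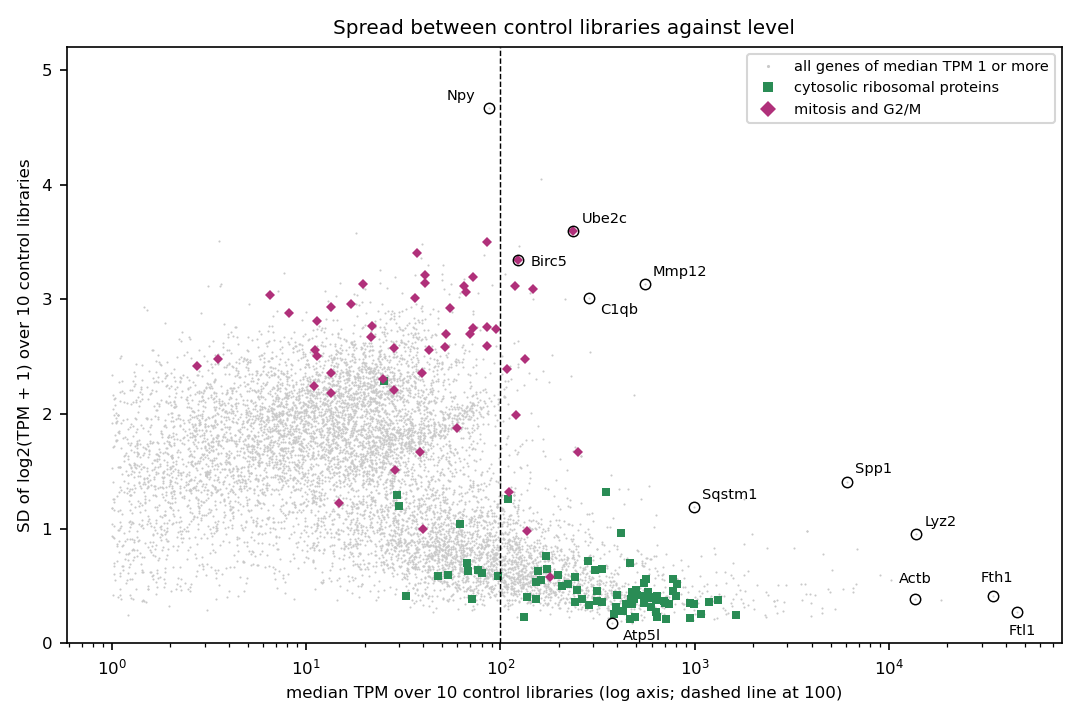
SD of log2(TPM + 1) over the 10 control libraries against median TPM (log axis), with 1 point per gene, squares for cytosolic ribosomal proteins and diamonds for mitosis genes. Above 100 TPM most genes lie near an SD of 0.58, ribosomal protein genes lie low, and Ube2c (3.59), Birc5 (3.35) and Mmp12 (3.13) lie high.

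The least variable genes belonged to basic cell machinery. Atp5l, a subunit of ATP synthase, was at 341, 345, 452, 378 and 344 TPM in wild-type libraries 1 to 5 and at 324, 426, 459, 382 and 373 TPM in knockout libraries 1 to 5, a 1.42-fold range and the lowest SD of the 1491 (0.18). Hint1, a nucleotide hydrolase, was next (SD 0.18, 399.9 to 595 TPM). The 15 lowest also held the respiratory chain genes Cox5b and Atp5f1, the ribosomal protein genes Rps3a1, Rpl9 and Rps9, the ribosomal protein-like gene Rpl36al, and Arpc5 and Myl6 of the actin skeleton. Elob of the ubiquitin ligase machinery, Snx3 of endosome sorting, Oaz1 of polyamine control and Sec11c of signal peptide removal completed the set, with 1 clone-type name. Their SD ran up to 0.225, and the next gene was at 0.226. All 15 stayed among the least variable 149 genes when any single library was left out, but only 6 to 12 of them stayed among the least variable 15. Which genes make up the lowest 15, and their order, is therefore loose.

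By class, 20 of 68 abundant ribosomal protein genes, 12 of 41 actin skeleton genes and 11 of 72 respiratory chain genes lay among the 149 least variable genes. These are 149 of the 1491 abundant genes, those with an SD up to 0.35. The 149 most variable held 2 of the ribosomal protein genes and 1 respiratory chain gene. For ribosomal protein genes the count was 9 once the 4 libraries with over 10% of moderate genes at 0 were left out. The median SD was 0.40 for ribosomal protein genes, 0.46 for respiratory chain genes and 0.48 for actin skeleton genes, beside 0.58 for all abundant genes. These comparisons were not matched for level. The 149 least variable genes had a median level of 446 TPM, beside 195 TPM for all abundant genes, and spread fell with level. Among ferritin genes Ftl1 had an SD of 0.27 and Fth1 of 0.41. Reference genes used in expression studies differed: Actb had an SD of 0.38 and Gapdh of 0.38, and Tbp, with a median of 36.4 TPM, had 2.23 and ran from 0.54 to 74.1 TPM.

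Genes of mitosis varied widely. Of 11 abundant members, 9 lay among the 149 most variable of the 1491 abundant genes (SD of at least 1.08), and the median SD of the 11 was 2.39. Ube2c, the ubiquitin-conjugating enzyme that helps cells leave mitosis, was at 1.56, 500.4, 0.19, 275 and 670.3 TPM in wild-type libraries 1 to 5 and at 1207, 254, 12.1, 9.73 and 219 TPM in knockout libraries 1 to 5. Birc5, which encodes survivin, was at 0.83, 343, 0.23, 535 and 808 TPM and at 615, 192, 44.1, 53.3 and 47.5 TPM. Ccnb1, cyclin B1, was at 13.2, 312, 0.12, 529 and 359 TPM and at 985, 78.8, 7.85, 56.6 and 216 TPM. All 3 were high in wild-type libraries 2, 4 and 5 and knockout library 1, and lowest in wild-type library 3.

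The same libraries stood out over the whole class. Of the 53 members, 46 to 52 reached 10 TPM in wild-type libraries 2, 4 and 5 and knockout library 1, 14 in wild-type library 3 and 16 in wild-type library 1. The summed share was 0.103%, 0.827%, 0.0499%, 0.943% and 0.970% in wild-type libraries 1 to 5 and 1.32%, 0.303%, 0.192%, 0.142% and 0.269% in knockout libraries 1 to 5, a 26.5-fold range. Both groups held high and low libraries. Cdk1, the kinase that drives entry into mitosis, ran from 16.3 TPM in wild-type library 3 to 855 TPM in knockout library 1. Bub3 of the spindle checkpoint varied least, at 95.2 to 341 TPM. The count of 9 rests on which libraries are included: it was 4 of 8 abundant members without the 4 libraries with over 10% of moderate genes at 0, 5 of 8 without wild-type library 4, 6 of 8 without wild-type library 2 or 5 or knockout library 1, and 14 of 16 without wild-type library 1 or 3 or knockout library 3 or 4.

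DNA replication genes followed another order. Their share was 0.558%, 0.448%, 0.226%, 0.210% and 0.336% in wild-type libraries 1 to 5 and 0.157%, 0.127%, 0.522%, 0.423% and 0.119% in knockout libraries 1 to 5. Wild-type library 1, near the bottom for mitosis, held the highest share, and knockout library 1, the highest for mitosis, was among the lowest. Pcna, the clamp that holds DNA polymerase on its template, was at 1511 TPM in wild-type library 1 and at 165 TPM in knockout library 1. Mcm6 of the replicative helicase was at 293 and 62.6 TPM in those libraries.

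Promoters of mitosis genes are known for the cell cycle genes homology region, or CHR, and for CCAAT boxes. On both strands, the letters TTTGAA occurred in 72.9% of the 48 windows of mitosis genes and in 14.8% of those of all protein-coding genes. CCAAT occurred in 77.1% and 37.7%. Ribosomal protein windows held TTTGAA in 5.33%. Of the 11 abundant mitosis genes, 10 had a window and 6 of them held TTTGAA. Stretches are shown for the 4 most variable of these with a match before the start, with the match in capitals (RefSeq, GRCm38.p6).
Ube2c (chr2:164769869-164769928, plus strand): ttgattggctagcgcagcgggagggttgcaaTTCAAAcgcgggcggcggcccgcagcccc
Smc2 (chr4:52439049-52439108, plus strand): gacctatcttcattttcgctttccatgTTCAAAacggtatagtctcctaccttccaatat
Cdk1 (chr10:69352913-69352972, minus strand): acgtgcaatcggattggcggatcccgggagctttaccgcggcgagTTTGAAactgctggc
Cks1b (chr3:89418292-89418351, minus strand): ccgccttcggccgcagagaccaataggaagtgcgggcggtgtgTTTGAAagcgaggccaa
Smc2 encodes a subunit of condensin, which compacts chromosomes, and Cks1b a small partner of cyclin-dependent kinases. In Ube2c and Smc2 the letters lie on the opposite strand. The windows of Birc5 and Ccnb1 held no TTTGAA, which says only that these letters are not in them.

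**Figure D4:**
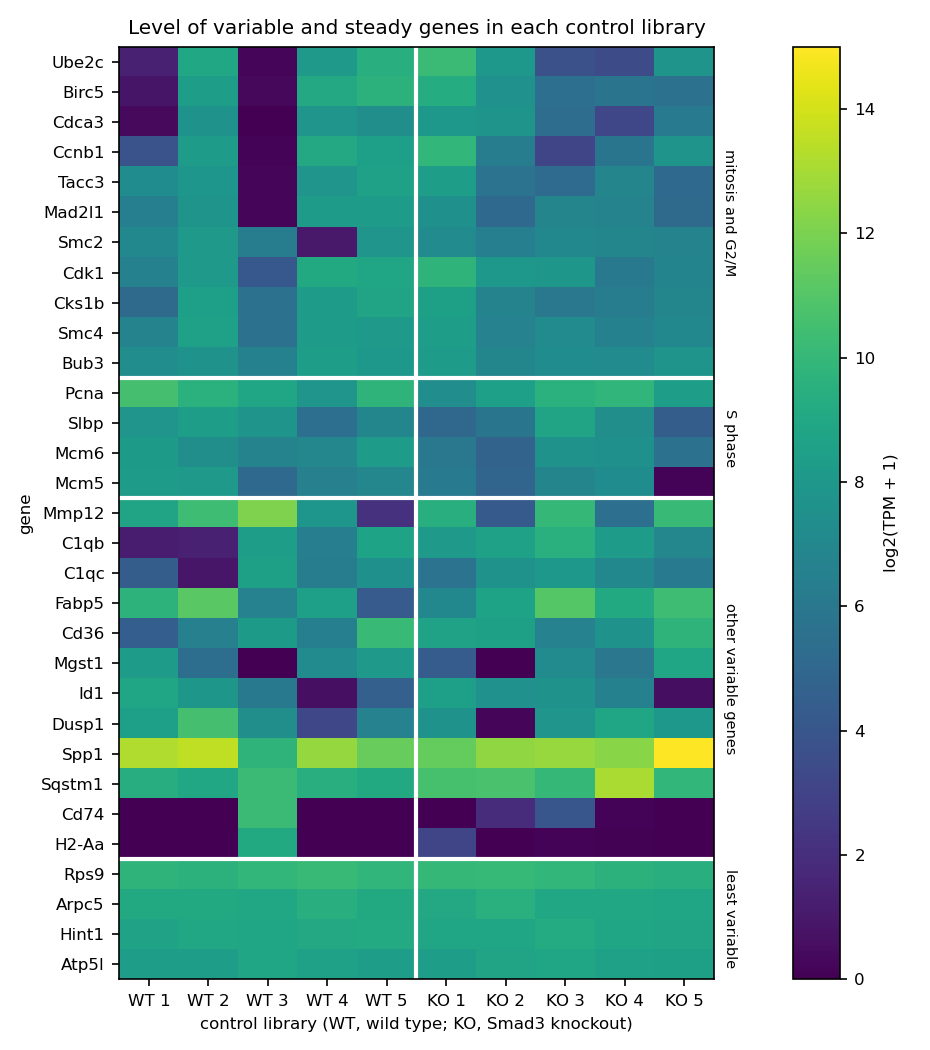
Level, as log2(TPM + 1) from 0 (dark) to 15 (bright), of 31 genes in each control library. The mitosis block is dark in wild-type library 3 and bright in wild-type libraries 2, 4 and 5 and knockout library 1, Cd74 and H2-Aa are bright in wild-type library 3, and the 4 steady genes at the bottom have nearly the same colour throughout.

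The other genes among the 15 most variable had varied roles. Mmp12, the macrophage elastase, was at 432, 1279, 4399.5, 236 and 3.41 TPM in wild-type libraries 1 to 5 and at 671, 17.8, 1009, 44.3 and 1161 TPM in knockout libraries 1 to 5. C1qb, a chain of the first complement component, was at 1.25 and 1.59 TPM in wild-type libraries 1 and 2 and at 85.4 to 728 TPM in the other 8. Its partner C1qc, chosen after its values were seen, was also lowest in those libraries, at 20.8 and 0.88 TPM. Mgst1, a glutathione transferase of membranes, was at 0 in wild-type library 3 and knockout library 2 and reached 445 TPM in knockout library 5. Id1, an inhibitor of helix-loop-helix factors, was at 0.52 TPM in wild-type library 4 and 0.49 TPM in knockout library 5 and up to 449.9 TPM elsewhere. Dusp1, an early-response phosphatase, ran from 0.18 to 1522 TPM.

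The rest of the 15 were Cdca3 of mitosis, Angptl2, Rab3il1, Ifi27l2a and Ninj1, and the pseudogenes Rpl3-ps1 and Rpl34-ps1, chosen by their SD and named after their values were seen. Their SD was at least 2.54, and the 16th gene was at 2.51. Membership was loose: 9 to 14 of the 15 stayed among the most variable 149 genes when a single library was left out, with 9 without wild-type library 2 or knockout library 1. Lipid-binding genes also varied. Fabp5 ran from 18.5 TPM in wild-type library 5 to 2322 TPM in wild-type library 2, while Cd36, the scavenger receptor, ran from 21.5 TPM in wild-type library 1 to 1161 TPM in wild-type library 5. Fabp4 was below TPM 1 in 3 libraries and at 284 to 479 TPM in 3 others.

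A set of 21 genes fell below TPM 1 in 3 or more libraries and yet lay at or above 100 TPM in 3 or more, of which 17 were protein-coding and 3 belonged to the mitosis class. Cenpa, the histone variant of centromeres, was 1 of these, at 0.05 to 0.86 TPM in 3 libraries and 134 to 415 TPM in 5. Cav1 of membrane caveolae ran from 0 to 385 TPM and Phgdh of serine synthesis from 0.12 to 279 TPM. Npy, which encodes neuropeptide Y, was also in this set and split by labelled genotype.

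Because the libraries carried 2 genotype labels, they were compared to see how far the baseline could be described as 1 set. Among 12158 tested genes, limma with Benjamini-Hochberg adjustment called 18 (0.148%) at an adjusted p under 0.05, 10 higher and 8 lower in libraries labelled knockout, and 708 had an unadjusted p under 0.05. Groups did not overlap for 129 genes (1.06%), including all 18. None of the top 30 genes, none of the 15 least variable genes and none of the 122 leading members of the classes was called. Of the 1491 abundant genes 4 were called, of the 15 most variable genes 2, and of the 10 named on-and-off genes 2. The least variable, most variable and on-and-off genes were chosen by their values in these same libraries, which partly fixes their counts. At a rate of 0.148%, sets of 30 or 122 genes would hold few calls or none, so their counts cannot show that the baseline is 1 set. Pseudogenes made up 11 of the 18, 5 were protein-coding and 2 had no symbol. Those 2 had identical values in every control library, so they are not separate results.

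Npy was at 0.41, 0.31, 0.28, 0.39 and 0.09 TPM in wild-type libraries 1 to 5 and at 316, 1285, 173, 520.0 and 1238 TPM in knockout libraries 1 to 5 (difference 8.71 on the log2(TPM + 1) scale, SE 0.62, limma adjusted p = 1.09e-07). It was present in every library labelled knockout and in none labelled wild type at TPM 1. The ribosomal protein genes below were chosen for their calls after values were seen.

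Of the other protein-coding calls, 3 encode ribosomal proteins. Rps2 was at 109, 108, 101, 144 and 225 TPM in wild-type libraries and at 936, 605, 793, 738 and 478 TPM in knockout libraries (difference 2.39, SE 0.28, limma adjusted p = 9.99e-05). Rpl29 was at 4.42 to 8.29 TPM and at 42.1 to 281 TPM. Rpl3 went the other way, at 731, 675, 996, 541 and 973 TPM in wild-type and 243, 294, 249.5, 213 and 167 TPM in knockout libraries (difference -1.73, SE 0.29, limma adjusted p = 0.00534).

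Processed copies of some ribosomal protein genes split too. Rpl3-ps1 was at 6.63, 3.62, 19.2, 0 and 0 TPM in wild-type libraries and at 720.3, 788, 609, 567 and 306 TPM in knockout libraries. Added to Rpl3, it gave 789 ± 201 TPM in wild-type and 831 ± 230.3 TPM in knockout libraries (SD, n = 5 each), with overlapping groups (two-sided exact permutation p = 0.817). Rpl34-ps1 was the reverse, at 246 to 405 TPM in wild-type and 0.27 to 3.99 TPM in knockout libraries, and its sum with Rpl34 also overlapped (563 ± 88.1 against 483 ± 198 TPM, two-sided exact permutation p = 0.484). Rpl35a-ps2 was at 0 to 17.1 TPM in wild-type and 136 to 325 TPM in knockout libraries, and its sum with Rpl35a was 335 ± 82.7 against 475 ± 138 TPM, again with overlap (two-sided exact permutation p = 0.111). These sums were chosen after the values were seen. Reads from near-identical copies are divided by estimation, so the split between a gene and its copy is uncertain.

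**Figure D5:**
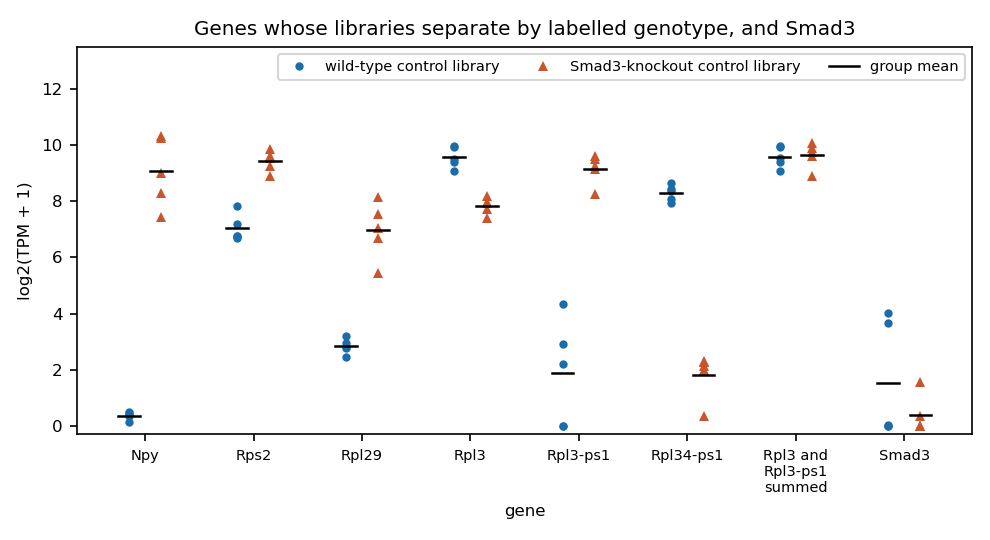
Level as log2(TPM + 1) of the called genes described in the text, of Rpl3 summed with its copy, and of Smad3, with 1 circle for each wild-type control library, 1 triangle for each knockout control library and bars at the group means. Npy, Rps2, Rpl29, Rpl3 and both pseudogenes separate the groups without overlap, while the sum of Rpl3 and Rpl3-ps1 and Smad3 overlap.

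Finally, the number of genes at TPM 1 was compared with the share of 4 classes over the 10 libraries. Against the actin cytoskeleton, Pearson's r was -0.71 (permutation p = 0.0186, Benjamini-Hochberg adjusted over 4 relations 0.0746) and Spearman's rho was -0.66 (permutation p = 0.0450, adjusted 0.180). Without the libraries with the most and the fewest genes, knockout library 4 and wild-type library 4, r was -0.45. Without knockout library 1, the relation passed the adjusted threshold with r = -0.93. For DNA replication r was 0.47 (permutation p = 0.163, adjusted 0.325; rho 0.42, p = 0.233, adjusted 0.466), with r = 0.40 without those libraries. For ribosomal proteins r was 0.05 (permutation p = 0.875; rho -0.07, p = 0.866) and for mitochondrially encoded genes 0.11 (permutation p = 0.770; rho 0.26, p = 0.471), so none of the 4 relations passed adjustment.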

How the data were processed

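Expression was deposited as 1 table of TPM values for 37620 Ensembl gene identifiers in 17 libraries. Per the submitters' processing notes, the authors used FastQC, Trim Galore and RSEM with build mm9; versions are not given in the sources used here. TPM gives every library the same total, so read depth is unknown and no counting interval could be given. Each of the table's 17 value columns was matched to a library.

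Symbols for 32897 identifiers came from GENCODE vM21, used for names, gene types, chromosomes and leader sequences; promoters came from RefSeq (GRCm38.p6, a build other than the submitters'). Spread was the SD of log2(TPM + 1) with a pseudocount of 1. Shares of TPM were compared between labelled genotypes by exact permutation tests. Genes reaching TPM 1 in 3 libraries were fitted with limma 3.58.1 (R 4.3.3) over all 4 groups of the series, with a trend and no covariate, and adjusted by Benjamini-Hochberg; the fit was tested on simulated data. Correlations used 100000 permutations.

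The libraries, gene classes, marker lists and rules were chosen with earlier results of these data known. Genes named are the 30 of highest median, the 15 most and 15 least variable of median 100 TPM or more, up to 4 leading members of each class, up to 10 genes below TPM 1 in 3 libraries and at 100 TPM in 3, some fixed pairs, members of the marker lists, and Lyz2, Fth1, Ftl1, Csf1r and Smad3. Of the genes called by genotype, 1 is not reported here. Pseudogenes were outside this rule; others outside it were chosen after their values were seen, or shown for their promoters.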

Additional observations from a re-analysis of the deposited data

Results flagged for a closer look

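Among the groups of 5 libraries, 176 sets of values (gene levels and class shares) were tested for a library far from the other 4 by Dixon's criterion, and 31 stood out, where chance flags about 1 in 20. Many of the genes were chosen for their spread over these libraries or after their values were seen, and genes of a class share libraries, so the number that stood out cannot be read against that rate.

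Among the wild-type libraries, library 3 had the highest levels of Cd74 (1181 TPM), H2-Aa (544 TPM) and H2-Ab1 (382 TPM), and the highest shares of MHC class II (0.245%), MHC class I (1.42%), matrix metalloproteinases and their inhibitors (0.595%) and mitochondrially encoded genes (5.34%). Of the others in that group, library 1 was high for Adgre1 (326 TPM) and low for proteasome and ubiquitin genes (1.53%). Library 2 was high for Dusp1 (1522 TPM) and Fabp4 (295 TPM), and library 4 for Arpc5 (672 TPM). Library 5 was high for Cd36 (1161 TPM) and low for lysosomal hydrolases and membrane proteins (1.69%).

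Knockout library 1 stood above the other knockout libraries for mitosis genes (1.32% of the TPM), with Cdk1 at 855 TPM, Ube2c at 1207 TPM, Ccnb1 at 985 TPM and Birc5 at 615 TPM. It was also highest for H2-Aa (7.63 TPM) and lowest for MHC class I (1.18%). Knockout library 4 was high for Sqstm1 (8662 TPM), Gclm (1352 TPM) and Fth1 (40096 TPM). Knockout library 5 was high for Spp1 (34315 TPM) and chemokines and cytokines (3.76%) and low for Rpl34-ps1 (0.27 TPM). Knockout library 3 was high for Hint1 (595 TPM), Cd74 (15.4 TPM) and Smad3 (1.93 TPM), and knockout library 2 for Arpc5 (745 TPM).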

How the results depend on the processing

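Depth is unknown for these values, so a gene listed at 0 cannot be told apart from a gene missed. The 31 classes covered 57.9% of the TPM when only protein-coding genes were kept, against 51.6%. The median SD of abundant genes was 0.58 and became 0.55 with a pseudocount of 10, 0.72 and 0.49 with a minimum of 50 and 200 TPM, 0.96 with no minimum, 0.50 with the median absolute deviation and 0.53 without the 4 libraries with over 10% of moderate genes at 0. Leaving out 1 library at a time gave medians of 0.55 to 0.59. The shares of 30 classes moved by less than 1 SD under every alternative. Leaving out 1 library, or keeping 1 labelled genotype, cannot move a mean by the SD over these same 10 libraries. Those alternatives therefore could not fail and are no sign of stability. The share of MHC class II, whose SD (0.0757%) exceeds its mean, was 0.0303% with wild-type library 3 and 0.00643% without it. The share of ferritin and iron handling moved only with protein-coding genes alone (9.34%).

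Without 1 library at a time 16 to 23 genes were called by labelled genotype, against 18, and other scalings, filters and pseudocounts, and the 10 control libraries alone, called 16 to 23. Same-numbered wild-type and knockout libraries did not deviate together (correlations of -0.189 to 0.0117, beside -0.118 to 0.214 for other numbers). That cannot show whether they shared a culture or a day, which the labels do not state. Whether the numbers pair them is therefore unknown. With the replicate number as a block limma called 4 genes, and Rps2, Rpl29 and Rpl3 had adjusted p-values of 0.172, 0.172 and 0.253. Of genes detected against the share of actin cytoskeleton, r was -0.78 with detection above TPM 0, the 1 relation that then passed adjustment, and 0 to 1 relations passed without 1 library at a time. The correlation with ribosomal proteins became -0.24 with detection above TPM 0 and was -0.16 to 0.24 without 1 library at a time, and that with mitochondrially encoded genes was -0.16 to 0.40.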
